A study of Mus musculus with 6 samples.

Results

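The proteasome is the cell's main machine for degrading proteins marked with ubiquitin, and its transcripts were examined in leptotene/zygotene (L/Z) spermatocytes, germ cells in the first stages of meiotic prophase. Its genes were taken as the protein-coding genes whose symbols are Psma, Psmb, Psmc, Psmd, Psme or Psmf followed by digits alone. This rule uses names and no measured values, and it gave 44 of the 54532 genes of the count table. It was chosen with earlier results of these data known. RNA-seq libraries were made from L/Z spermatocytes that were isolated by FACS from the testes of mice aged 12 days postpartum (dpp), with 3 control and 3 Eef1g-cKO libraries. In Eef1g-cKO males, a floxed Eef1g allele made on a C57BL/6J background, whose product belongs to the eEF1 complex that feeds aminoacyl-tRNA to ribosomes, was deleted over exons 2 to 7 by Stra8-GFPCre, a Cre transgene driven by a germ cell promoter that is active from early spermatogonia onwards. Control males carry the genotype label Wild type, and whether they bore the floxed allele or the Cre is not given in the labels. The sources do not say whether the libraries of a group came from separate animals, so p-values measure only the spread between these libraries, which may be technical.

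The 20S core is a barrel of 4 stacked rings, in which PSMA (alpha) subunits form the outer gates and PSMB (beta) subunits form the inner chamber. PSMB5, PSMB6 and PSMB7 carry the cutting sites, and in immune cells, and in other cells exposed to interferon, they are replaced by PSMB8, PSMB9 and PSMB10 respectively. The 19S regulator caps the barrel, where PSMC ATPases unfold substrates and PSMD subunits bind and trim ubiquitin chains. PSME1 and PSME2 form the PA28 activator, PSME3 forms PA28 gamma, and PSME4 is PA200, which is abundant in testis. Spermatocytes also make PSMA8, a germ cell relative of PSMA7 that takes its place in the core.

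In Eef1g-cKO L/Z spermatocytes, the proteasome genes that changed were nearly all lower than in control and belonged to the 20S core and the PA28 activator. None of the 16 tested genes counted here in the 19S regulator passed with edgeR, where 7.8% of all tested genes were higher and 6.01% were lower. DESeq2 called Psmc5 lower, and limma-voom called Psmc5 lower and Psmd6 higher. Whether the core and the regulator differed in their response was not tested. Psma4, Psma7, Psmb1, Psmb3, Psmb5, Psmb10, Psme1 and Psme2 fell, and Psma6 rose. The falls ran from a log2 fold change of −0.78 (SE 0.17) for Psmb1 to −2.78 (SE 0.73) for Psmb10, and the rise of Psma6 was 0.63 (SE 0.18; n = 3 libraries per genotype). Psma8 did not pass, with a log2 fold change of −0.18 (SE 0.33).

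Of the 44 genes, 40 passed the filter on low counts and were tested. With edgeR's quasi-likelihood test and p-values adjusted by Benjamini-Hochberg over 8513 genes, 8 of the 40 (20%) were lower at an adjusted p under 0.05, where 6.01% of all tested genes were lower. In the other direction 1 of 40 (2.5%) was higher, against 7.8% of all tested genes. When an absolute log2 fold change over 1 was also required, 5 genes (12.5%) were lower, against 4.96% of all tested genes, and these were Psmb3, Psmb5, Psmb10, Psme1 and Psme2. With that limit 0 were higher, against 3.42% of all tested genes; DESeq2 and limma-voom with the same limit also gave 0. At an unadjusted p under 0.05 and with no limit on fold change, edgeR gave 4 higher and 12 lower of the 40, against 14.3% higher and 13.2% lower of all tested genes. CPM ranges of control and Eef1g-cKO were apart for 20 of the 40 genes (50%), against 34.5% of all tested genes. Over the 8513 genes the median log2 fold change was −0.050.

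The filter left out 4 genes. Psmb8 had no read in any library. Psmb9 had 2, 2 and 0 reads in control replicates 1 to 3 and none in Eef1g-cKO. Psmb11, a beta subunit of the thymus, had 1, 2 and 1 reads in control and none in Eef1g-cKO. At or under the detection floor of 3 reads per library, which equalled 1.18 to 4.63 CPM (the count of a gene in a library brought to 1000000 reads), no level of these 3 genes can be told from 0. Psmd13, a lid subunit of the 19S regulator, had 10, 2 and 8 reads in control and 2, 13 and 1 reads in Eef1g-cKO. A processed pseudogene, Gm15542, lies within Psmd13 on the same strand over 1194 bases and held 230 reads, so the count of Psmd13 is uncertain.

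**Figure D1:**
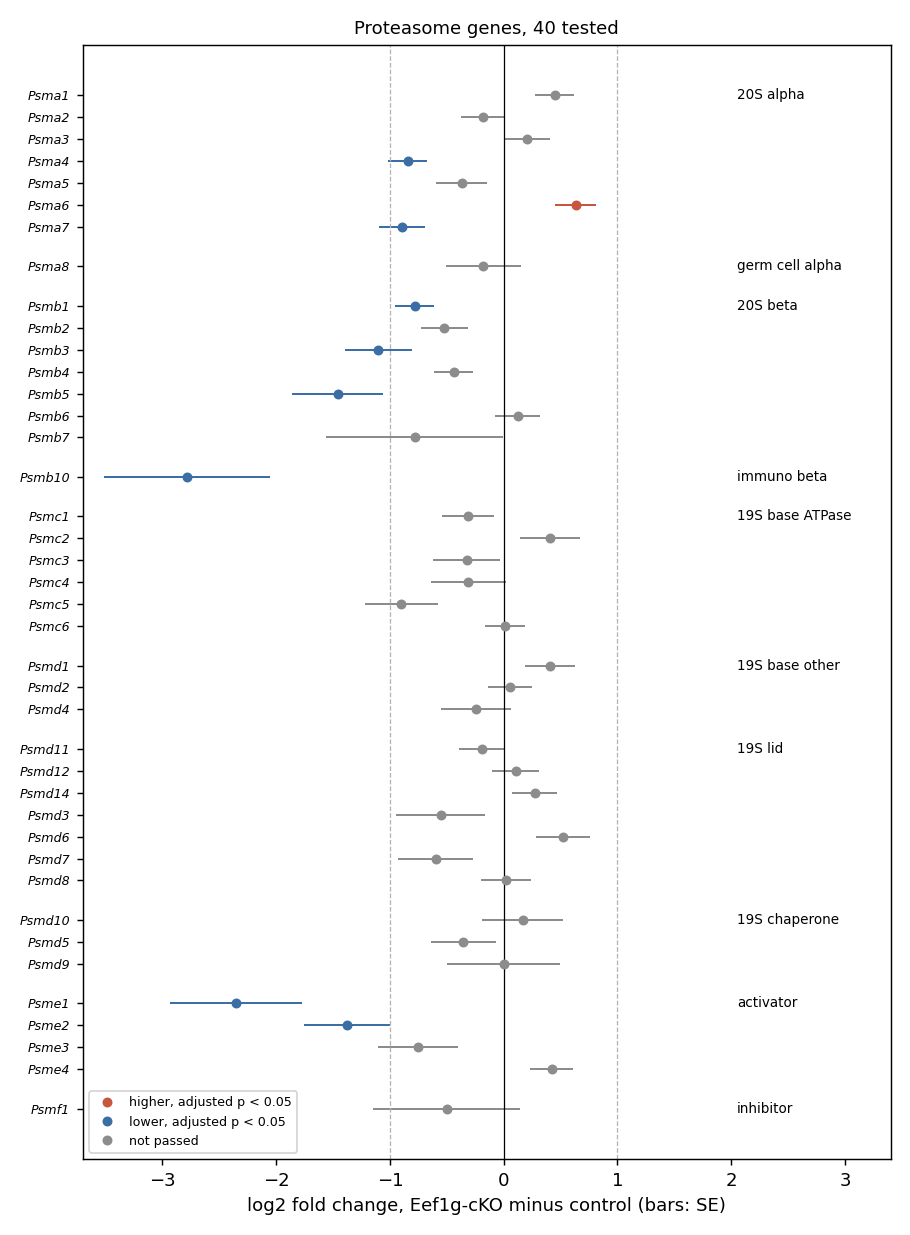
Log2 fold change (x axis, Eef1g-cKO minus control) of each of the 40 tested proteasome genes (rows, grouped by part of the complex), with bars of 1 SE; dashed lines mark a log2 fold change of 1 in either direction. Of the 7 general 20S beta subunits 6 lie to the left of 0, and Psmb6 lies at 0.12. The PA28 genes Psme1 and Psme2 lie to the left. The 19S genes scatter on both sides of 0 between −0.90 and 0.52.

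Libraries held 763133 to 2617648 reads assigned to genes, with the smallest total in Eef1g-cKO replicate 3, and the 44 genes took 0.574% to 0.831% of a library. Nuclear rRNA genes took 9.23% of the reads of Eef1g-cKO replicate 3 and 2.73% to 6.29% of the other libraries. Reads were found for 14903 to 15761 genes in control and 11174 to 14514 genes in Eef1g-cKO libraries; the part of depth, RNA quality and these differences in the results was tested only by leaving out libraries and by thinning. Reads were counted without molecular identifiers, so the detection floor covers counting error only. Eef1g itself, the targeted gene, had 222, 226 and 212 CPM in controls and 139, 151 and 119 CPM in Eef1g-cKO, so that it fell by 0.68 on the log2 scale (SE 0.20; adjusted p = 0.029, edgeR). Of 11 meiotic prophase markers, 10 were tested and 8 were higher in Eef1g-cKO, against 7.8% of all tested genes. The summed level of the 11 was 14860 to 16470 CPM in controls and 32580 to 40050 CPM in Eef1g-cKO. Every other marker list summed to less than the meiotic prophase list, with differentiating spermatogonia highest among them. Among these other lists, all sums but those of blood and endothelial markers were lower in Eef1g-cKO, with ranges apart. The counts of lower markers that follow stand against 6.01% lower of all tested genes. The 9 markers of undifferentiated spermatogonia summed to 121 to 160 CPM in control and 10.8 to 53.4 CPM in Eef1g-cKO (1 of 2 tested was lower; Pou5f1 was at 0). The 5 markers of differentiating spermatogonia summed to 552 to 624 CPM and 277 to 328 CPM (3 of 5 were lower). Sertoli cell markers summed to 64.1 to 187 CPM in controls and 1.55 to 32.5 CPM in Eef1g-cKO (9 markers, 1 of 3 tested lower). Peritubular and stromal markers summed to 191 to 329 CPM and 18.5 to 80.0 CPM (8 markers, 4 of 5 tested lower). Blood and macrophage markers summed to 7.28 to 77.9 CPM and 3.53 to 75.7 CPM, with Cd68 and Csf1r at 0 in all libraries. The remaining lists also stood low in control and Eef1g-cKO respectively. Leydig cell markers were at 8.40 to 10.7 and 1.57 to 6.47 CPM (6 markers, none tested, Hsd3b1 and Cyp17a1 at 0). Endothelial markers were at 3.82 to 12.3 and 0 to 35.6 CPM (4 markers, 1 tested, which did not pass). Markers of pachytene and later germ cells were at 24.7 to 37.0 and 0 to 16.1 CPM (1 of 2 tested lower, Acrv1 and Acr at 0). Of 9 listed for these later cells 8 were found, and H1f6 was not matched by symbol. The part of these cells in the proteasome differences below was not tested. In such bulk samples, fewer cells of a type and less RNA per cell cannot be told apart.

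Promoter windows of 4 genes are given because transcription factors are known for both sets: NFE2L1 and NFE2L2 raise proteasome genes through the antioxidant response element, and interferon signalling raises PA28 genes through its own response element. Each window runs from 250 bases before to 50 bases after the RefSeq transcription start (GRCm38.p6), 5′ to 3′ on the strand of the gene. Psmb5 and Psmb6 both carry a cutting site of the core, and the first fell while the second did not pass the test; capitals mark the core of the antioxidant response element, TGACNNNGC, searched on both strands.

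Psmb5 (chr14:54617946-54618245, minus strand): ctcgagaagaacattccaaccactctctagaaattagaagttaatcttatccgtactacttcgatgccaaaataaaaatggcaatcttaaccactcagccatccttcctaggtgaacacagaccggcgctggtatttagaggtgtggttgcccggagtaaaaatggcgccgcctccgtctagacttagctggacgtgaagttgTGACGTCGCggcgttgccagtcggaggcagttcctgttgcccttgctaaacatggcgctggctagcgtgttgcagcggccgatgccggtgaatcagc
Psmb6 (chr11:70525107-70525406, plus strand): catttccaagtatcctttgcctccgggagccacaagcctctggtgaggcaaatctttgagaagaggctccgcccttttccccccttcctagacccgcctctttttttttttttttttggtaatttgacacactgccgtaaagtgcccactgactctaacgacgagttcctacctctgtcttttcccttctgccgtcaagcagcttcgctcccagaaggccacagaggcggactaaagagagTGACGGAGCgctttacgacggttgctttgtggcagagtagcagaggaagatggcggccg

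For Psme1 and Psme2, the pair that forms PA28, capitals mark the core of the interferon-stimulated response element, GAAANNGAAA, also searched on both strands. The Psme1 window starts at chr14:55578244, inside the gene as counted, which starts at chr14:55578123. Its RefSeq start therefore lies downstream of the start of the counted gene.

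Psme1 (chr14:55578244-55578543, plus strand): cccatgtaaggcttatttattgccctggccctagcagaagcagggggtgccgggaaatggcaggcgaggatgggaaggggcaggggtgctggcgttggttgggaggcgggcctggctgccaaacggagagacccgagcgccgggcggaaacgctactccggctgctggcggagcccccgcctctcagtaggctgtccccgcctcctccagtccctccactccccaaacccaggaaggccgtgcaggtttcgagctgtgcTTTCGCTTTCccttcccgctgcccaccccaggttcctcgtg
Psme2 (chr14:55591052-55591351, minus strand): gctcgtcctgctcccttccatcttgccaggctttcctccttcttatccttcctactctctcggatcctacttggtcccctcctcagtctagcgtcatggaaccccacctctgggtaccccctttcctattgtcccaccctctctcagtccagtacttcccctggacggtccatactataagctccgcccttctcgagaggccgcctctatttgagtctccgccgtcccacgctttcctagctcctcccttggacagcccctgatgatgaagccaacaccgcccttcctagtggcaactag

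A RefSeq window was found for 37 of the 44 genes, and some genes have several windows. TGACNNNGC was in 6 of the 37 (Psmb5, Psmb6, Psmc6, Psmd12, Psmd9 and Psme4), or 16.2%, and in 14.0% of all 27025 genes with a window. Of these 6 genes, Psmb5 fell and the other 5 did not pass the test. GAAANNGAAA was in 4 of the 37 (Psmb3, Psmd4, Psmd9 and Psme1), or 10.8%, and in 3.99% of all genes. Psmb3 and Psme1 fell, and Psmd4 and Psmd9 did not pass; the window of Psme2 holds no match to these letters. A match to a motif is a description of the sequence and no measurement of binding.

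The alpha ring held calls in both directions. Of its 7 general subunits, 1 was higher (14.3%, against 7.8% of all tested genes), 2 were lower (28.6%, against 6.01%) and 4 did not pass. The median log2 fold change was −0.18. Psma4 (chr9:54950790-54958030) was at 369, 382 and 409 CPM in control replicates 1 to 3 and at 226, 223 and 196 CPM in Eef1g-cKO. All Eef1g-cKO libraries lay below all control libraries, and the log2 fold change was −0.84 (SE 0.17; adjusted p = 0.0028, edgeR). A processed pseudogene, Gm6542, matches Psma4 closely but held 78 reads against 2917 for Psma4, and with both summed the log2 ratio of mean CPM was −0.85, as it was for Psma4 alone.

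Psma6 (chr12:55384222-55418454) moved the other way. It had 232, 245 and 310 CPM in controls and 372, 463 and 383 CPM in Eef1g-cKO, so the ranges were apart with Eef1g-cKO above (log2 fold change 0.63, SE 0.18; adjusted p = 0.023, edgeR). This call was lost in 7 of 21 alternative fits; it was lost with library totals alone (adjusted p = 0.15), where the value was 0.44, and without Eef1g-cKO replicate 2 or without control replicate 1 or 2. Psma1 also stood higher in every Eef1g-cKO library, at 377, 285 and 288 CPM in controls and 472, 430 and 391 CPM in Eef1g-cKO, but did not pass (log2 fold change 0.45, SE 0.17; adjusted p = 0.096, edgeR). Psma2, Psma3 and Psma5 had log2 fold changes of −0.18, 0.20 and −0.37 and did not pass. The count of Psma3 is uncertain, since the pseudogene Gm13835 is identical to it over 662 bases and held 970 reads against 2568 for Psma3.

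Psma7, the general relative of the germ cell subunit Psma8, fell. It lies on chr2:180036374-180042433 and was at 329, 239 and 290 CPM in controls and 136, 147 and 181 CPM in Eef1g-cKO. The highest Eef1g-cKO library lay below the lowest control library, and the log2 fold change was −0.90 (SE 0.20; adjusted p = 0.0060, edgeR). The call was lost with an offset for GC content, at −0.43 (adjusted p = 0.18), which moved the value by over 1.5 times, and without control replicate 1, at −0.77 (adjusted p = 0.055). Psma7 had the highest GC content of the 40 tested genes, at 57.4% of its longest transcript.

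Psma8, the germ cell alpha subunit, overlapped between the genotypes. It had 95.4, 46.7 and 95.2 CPM in controls and 71.2, 85.9 and 47.9 CPM in Eef1g-cKO, and the lowest value of all was in control replicate 2. Its log2 fold change of −0.18 (SE 0.33; adjusted p = 0.78, edgeR) was smaller than its standard error. It turned to 0.041 with limma-voom, to 0.038 without Eef1g-cKO replicate 3, and to 0.033 with the replicate block and gene length offset, and no fit passed the threshold.

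Per kilobase of transcript, Psma7 was the more abundant of the pair in all 6 libraries. Levels per kilobase were 313 CPM for Psma7 and 46.7 CPM for Psma8 in control, and 169 CPM and 40.4 CPM in Eef1g-cKO. Psma8 made up 13.5%, 9.56% and 15.1% of their summed level in control and 22.1%, 24.0% and 12.5% in Eef1g-cKO; Eef1g-cKO replicates 1 and 2 lay above all control libraries, and replicate 3 lay within their range. The log2 ratio of Psma8 to Psma7 per kilobase was −2.80 ± 0.39 (SD, n = 3) in control and −2.09 ± 0.61 in Eef1g-cKO. The difference of 0.71 did not pass a 2-sided exact permutation test (p = 0.30; 0.30 after adjustment over 2 ratios), in which 3 against 3 allows no p below 0.1. The level of the ratio depends on the length used: with the length given in the table, 3071 bases for Psma7 in place of the 914 bases of its coding transcript, it was −1.05 in control and −0.34 in Eef1g-cKO, while the difference was the same by construction.

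**Figure D2:**
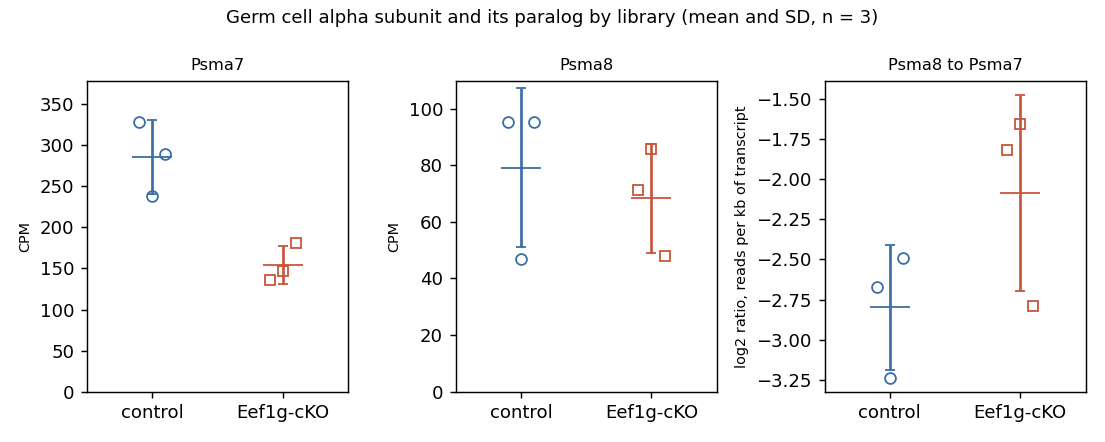
CPM of Psma7 and Psma8 and the log2 ratio of Psma8 to Psma7 per kb of transcript (y axes) in control (circles) and Eef1g-cKO (squares) libraries, with mean and SD. For Psma7 the groups are apart, with 239 CPM as the lowest control value and 181 CPM as the highest Eef1g-cKO value, and for Psma8 and for the ratio they overlap.

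Most beta subunits were at lower levels in Eef1g-cKO. Of the 7 general beta subunits 6 had a negative log2 fold change and 3 passed the test, all lower (42.9%, against 6.01% of all tested genes); the median was −0.78, against −0.050 over all tested genes. Psmb1, a structural subunit (chr17:15475021-15499751), was at 618, 511 and 498 CPM in controls and 321, 354 and 266 CPM in Eef1g-cKO, with no overlap (log2 fold change −0.78, SE 0.17; adjusted p = 0.0049, edgeR). Psma4 and Psmb1 were the only genes among the 9 calls that passed in all 21 alternative fits, with log2 fold changes from −1.03 to −0.71 for Psma4 and from −0.97 to −0.63 for Psmb1.

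Psmb3, another structural subunit (chr11:97703399-97713500), had 93.1, 114 and 119 CPM in controls and 35.6, 59.6 and 57.1 CPM in Eef1g-cKO. All Eef1g-cKO libraries lay below control (log2 fold change −1.10, SE 0.29; adjusted p = 0.017, edgeR). The call was lost in 4 of 21 fits: without control replicate 2 or 3, without Eef1g-cKO replicate 1 and with the replicate block and GC offset. Near-identical copies of Psmb3 held 66 reads against 786, and summing them in gave a log2 ratio of mean CPM of −1.05 against −1.10 for Psmb3 alone.

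Psmb5, the subunit with the chymotrypsin-like site whose promoter is printed above, lies on chr14:54614119-54618022. It was at 120, 86.6 and 99.1 CPM in controls and at 38.8, 55.3 and 9.27 CPM in Eef1g-cKO. Control libraries were all above Eef1g-cKO libraries, and the lowest value, from 6 reads, was in the library of least depth. The log2 fold change was −1.46 (SE 0.40; adjusted p = 0.022, edgeR), and it was −1.04 with the GC content offset, with an adjusted p of 0.093. The call was also lost without control replicate 1 or 3, or without Eef1g-cKO replicate 1. The copy Gm3375 held 38 reads, and with it the log2 ratio of mean CPM was −1.40 against −1.56 for Psmb5 alone.

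The other 2 genes of the catalytic sites did not pass. Psmb6, which gives the caspase-like site, was at 175, 210 and 195 CPM in controls and 183, 252 and 193 CPM in Eef1g-cKO, so the ranges overlapped. Its log2 fold change was 0.12 (SE 0.20; adjusted p = 0.75, edgeR) and turned to −0.064 with library totals alone. Psmb7, which gives the trypsin-like site, had 7.63, 12.1 and 8.96 CPM in controls and 5.66, 7.06 and 3.09 CPM in Eef1g-cKO, from at most 23 reads a library (log2 fold change −0.78, SE 0.77; adjusted p = 0.56, edgeR). In control its level per kilobase of transcript, 8.24 CPM, was the lowest of the 7, whose median was 242 CPM, although the subunits are equal in number in the assembled core. Psmb7 overlaps Nek6 on the opposite strand over 6571 bases and shares 155 identical bases with its transcript, and whether the counting used strand is not stated, so its level is uncertain. Psmb2 and Psmb4, both structural, had non-overlapping ranges with Eef1g-cKO below. The means went from 257 ± 23.5 to 177 ± 44.0 CPM for Psmb2 and from 390 ± 34.6 to 287 ± 28.3 CPM for Psmb4 (SD, n = 3), and both did not pass (adjusted p = 0.11 and 0.093, edgeR).

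Of the immunoproteasome subunits, Psmb10 alone could be tested. It lies on chr8:105935735-105938444 and had 31, 32 and 53 reads in control and 4, 13 and 0 reads in Eef1g-cKO, or 23.7, 16.8 and 29.7 CPM against 3.23, 5.10 and 0 CPM. No Eef1g-cKO library reached the control range, and Psmb10 fell by 2.78 on the log2 scale (SE 0.73; adjusted p = 0.015, edgeR). The call was lost without control replicate 1 or 3 and with the replicate block and GC offset. The log2 ratio of Psmb10 to Psmb7 per kilobase went from 1.07 ± 0.68 (SD, n = 3) in control to −1.35 ± 1.01 in Eef1g-cKO, a difference of −2.42 with no overlap; the exact permutation p of 0.1, the smallest possible, became 0.20 after adjustment over 2 ratios. With 3 reads added to each count in place of 0.5 the difference was −1.67, and without Eef1g-cKO replicate 3, where Psmb10 had no read, it was −1.85. The ratio also rests on Psmb7, whose level is uncertain. Ratios of Psmb8 to Psmb5 and of Psmb9 to Psmb6 are not given, because Psmb8 and Psmb9 were at or under the floor. The Sertoli cell marker sum was 64.1 to 187 CPM in control and 1.55 to 32.5 CPM in Eef1g-cKO. Of its 3 tested markers 1 was lower, against 6.01% of all tested genes. The peritubular and stromal sum was 191 to 329 CPM and 18.5 to 80.0 CPM, with 4 of 5 tested lower, against the same 6.01%. Sums of the spermatogonial, Leydig and pachytene lists, given above, were lower with ranges apart. Sums overlapped for the endothelial list, at 3.82 to 12.3 and 0 to 35.6 CPM. They also overlapped for the blood list, at 7.28 to 77.9 and 3.53 to 75.7 CPM. The 7 macrophage and leukocyte genes of the blood list had at most 4 reads in any library, in both genotypes, and the rest of that sum came from the haemoglobin genes Hba-a1 and Hbb-bs. The part of these cells in the fall of Psmb10 was not tested.

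**Figure D3:**
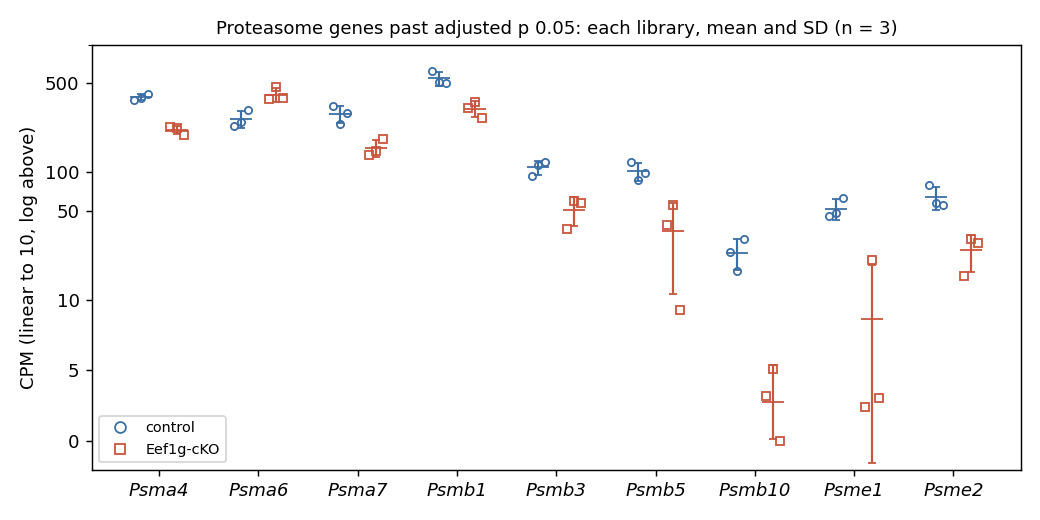
CPM (y axis, linear to 10 and logarithmic above) of the 9 proteasome genes with an adjusted p under 0.05, in each control (circles) and Eef1g-cKO (squares) library, with mean and SD. The groups are apart for each of the 9 genes; Psma6 is higher in Eef1g-cKO and the other 8 are lower, down to 0 CPM for Psmb10 in Eef1g-cKO replicate 3.

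By the symbol rule, the 19S regulator is counted here without Sem1 and Adrm1. Both were counted with the pathway genes below and did not pass (log2 fold changes 0.12 and 0.23, edgeR). None of the 16 tested genes of the 19S regulator (17 in all, with Psmd13) passed the edgeR test in either direction, against 7.8% higher and 6.01% lower of all tested genes. Their median log2 fold change was −0.091, and its sign turned in some fits. At an unadjusted p under 0.05, edgeR gave 1 lower and 1 higher gene, against 13.2% lower and 14.3% higher of all tested genes. DESeq2 called 1 lower (6.25%) and 0 higher, against 612 lower and 735 higher of all 8513 genes. With limma-voom 1 was lower and 1 higher (6.25% each), against 687 lower and 921 higher of all 8513 genes. Psmc5, an ATPase of the base, was the lower gene, at 70.2, 66.7 and 63.8 CPM in controls and 31.5, 34.1 and 43.2 CPM in Eef1g-cKO. Its ranges were apart (log2 fold change −0.90, SE 0.32; adjusted p = 0.073, edgeR), and its adjusted p was 0.049 with DESeq2 and 0.031 with limma-voom. Psmd6, a lid subunit, was the higher gene, at 170, 128 and 124 CPM in controls and 235, 229 and 134 CPM in Eef1g-cKO, where replicate 3 lay within the control range. Its log2 fold change was 0.52 (SE 0.24; adjusted p = 0.16, edgeR), and it passed with limma-voom (adjusted p = 0.017). These 2 genes were chosen after their values were seen.

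The 6 ATPases had a median log2 fold change of −0.31, from −0.90 for Psmc5 to 0.41 for Psmc2. The base subunits Psmd1 and Psmd2, the scaffolds for ubiquitin receptors, and Psmd4, itself a ubiquitin receptor, had values of 0.41, 0.056 and −0.24. In the lid, Psmd14, the deubiquitinase that releases ubiquitin chains from substrates, was at 170 ± 24.7 CPM in the control and 206 ± 12.0 CPM in the Eef1g-cKO group (SD, n = 3; log2 fold change 0.27, SE 0.20). The other tested lid genes lay between −0.60 for Psmd7 and 0.52 for Psmd6. The chaperones that assemble the base, Psmd5, Psmd9 and Psmd10, were not counted in the regulator; none of the 3 passed the edgeR test (nor at an unadjusted p under 0.05, nor with DESeq2 or limma-voom), and they had log2 fold changes of −0.36, 0.00 and 0.17.

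Of the 4 activators, Psme1 and Psme2 fell (50%, against 6.01% of all tested genes) and Psme3 and Psme4 did not pass. None was higher, against 7.8% of all tested genes. CPM ranges were apart for all 4, against 34.5% of all tested genes. Psme1 (chr14:55578123-55581529) was at 45.0, 47.8 and 62.7 CPM in controls and at 2.43, 20.4 and 3.09 CPM in Eef1g-cKO. Eef1g-cKO replicates 1 and 3 held 3 and 2 reads, at or under the floor, and replicate 2 held 52. The log2 fold change was −2.35 (SE 0.58; adjusted p = 0.011, edgeR), and the call was lost in 1 of 20 fits, without control replicate 3 (adjusted p = 0.065); without Eef1g-cKO replicate 2 the fitted log2 fold change was −4.22, a value set by libraries at or under the floor.

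Psme2, the partner of Psme1 in PA28, lies near it on chr14:55587441-55591113 and had 78.6, 57.2 and 55.4 CPM in controls and 15.4, 29.8 and 27.8 CPM in Eef1g-cKO. The ranges were apart (log2 fold change −1.38, SE 0.38; adjusted p = 0.019, edgeR), but the call was lost in 7 of 21 fits, among them the GC content offset (−1.09; adjusted p = 0.064) and the fits without Eef1g-cKO replicate 1 or without any 1 of the 3 control replicates. Psme2b, a gene whose transcript matches 717 bases of Psme2 at 99.3% identity, could share its reads. It had 86, 63 and 52 reads in control and 2, 38 and 3 in Eef1g-cKO and was lower as well (log2 fold change −2.40, SE 0.62; adjusted p = 0.014, edgeR). The sum of both gave a log2 ratio of mean CPM of −1.76, against −1.39 for Psme2 alone.

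Psme3, the nuclear activator PA28 gamma, was at 51.9, 55.6 and 75.0 CPM in controls and 27.5, 34.9 and 47.9 CPM in Eef1g-cKO. These ranges did not overlap, but it did not pass (log2 fold change −0.75, SE 0.35; adjusted p = 0.17, edgeR). Psme4, which encodes PA200, an activator linked to the removal of acetylated histones in spermatids, stood above control in all 3 Eef1g-cKO libraries, at 235, 243 and 205 CPM against 176, 158 and 179 CPM, and did not pass either (log2 fold change 0.42, SE 0.19; adjusted p = 0.16, edgeR). Psmf1, which encodes the inhibitor PI31, had 18.3, 8.92 and 18.5 CPM in controls and 11.3, 6.67 and 15.4 CPM in Eef1g-cKO, with overlap (log2 fold change −0.50, SE 0.64).

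Summed over each part of the complex and taken per kilobase of transcript, the levels of the genotypes were apart for the beta ring and the activators and overlapped for the alpha ring and the 19S regulator. The 7 alpha genes summed to 1463 ± 108 CPM per kb in control and 1376 ± 84.6 in Eef1g-cKO (SD, n = 3), with overlap. The 7 beta genes summed to 1524, 1415 and 1392 CPM per kb in control and to 992, 1155 and 848 in Eef1g-cKO, with no overlap. The 17 genes counted in the 19S regulator, without Sem1 and Adrm1, summed to 1509 ± 180 CPM per kb in control and 1529 ± 154 in Eef1g-cKO. The 4 activators summed to 169, 148 and 170 CPM per kb in control and to 64.6, 99.9 and 81.3 in Eef1g-cKO. Without division by length, where the long Psme4 transcript weighs more, the activators summed to 351, 319 and 372 CPM in controls and 280, 328 and 284 CPM in Eef1g-cKO, which overlapped. These sums describe the genes listed and carry no test.

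A ratio within a library needs no scaling between libraries. The beta to alpha ratio of the sums was 0.996, 1.06 and 0.916 in control and 0.722, 0.790 and 0.656 in Eef1g-cKO, so the groups were apart with Eef1g-cKO below. The ratio of the 19S regulator, as counted above, to the 14 general core genes was 0.562, 0.517 and 0.477 in control. It was 0.599, 0.559 and 0.797 in Eef1g-cKO, with overlap and the highest value in Eef1g-cKO replicate 3. The ratio of activators to core was 0.0557 ± 0.0023 in control and 0.0345 ± 0.0062 in Eef1g-cKO (SD, n = 3), with no overlap.

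**Figure D4:**
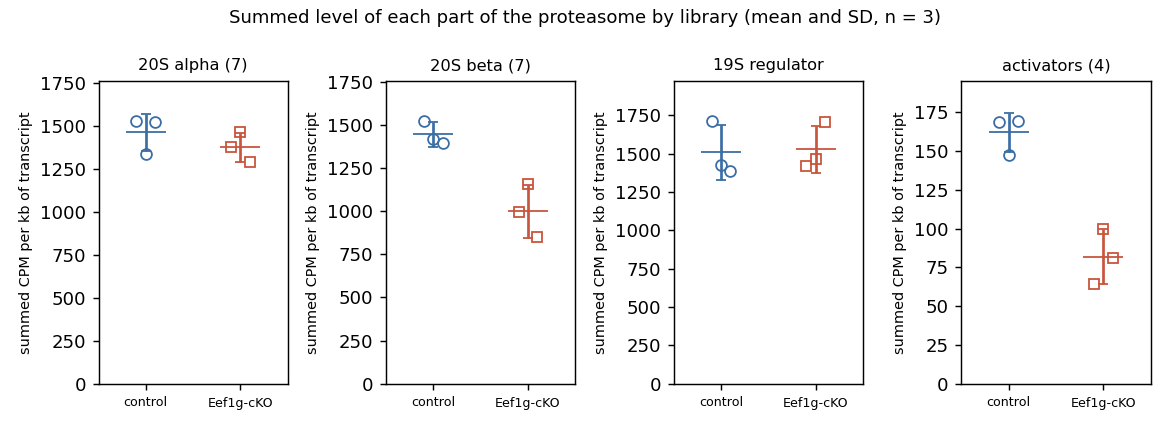
Summed CPM per kb of transcript (y axes, each from 0) of the 7 alpha, 7 beta, 17 19S regulator and 4 activator genes in control (circles) and Eef1g-cKO (squares) libraries, with mean and SD. The beta and activator sums of the groups are apart, at 1444 and 998 and at 162 and 81.9 on average, and the alpha and 19S sums overlap.

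GC content moved with these differences. Over the 40 tested members, as a description of genes and not of replicates, the log2 fold change and the GC content of the longest transcript had a Pearson correlation of −0.56 and a Spearman correlation of −0.55, and across 8508 tested genes with a value these were −0.25 and −0.28. The 8 lower genes had a median GC content of 54.5%, the other 32 had 48.4%, and all tested genes had 47.6%. Psma7, Psmb5, Psmb10 and Psme1 were the 4 genes of highest GC content, from 56.2% to 57.4%, and all 4 fell; Psma4, at 45.0%, fell as well. With an offset for GC content, 5 proteasome genes were lower, in place of 8. Over all 8513 tested genes 400 were lower with it, in place of 512. The median of the beta genes was below 0 in every fit. The part of GC content in the result beyond that offset was not tested.

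**Figure D5:**
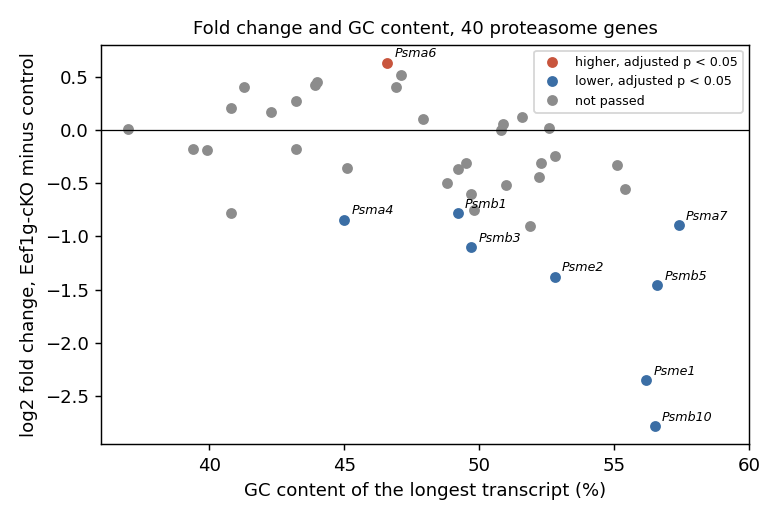
Log2 fold change (y axis, Eef1g-cKO minus control) against the GC content of the longest transcript (x axis, percent) for the 40 tested proteasome genes, coloured by the edgeR call. The 4 genes at the right, from 56.2% to 57.4%, are all lower, and Psma4 at 45.0% is lower as well.

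Genes that build, assist or control the proteasome were counted from a list of 25, of which 24 were matched by symbol and 22 were tested. Among them 1 was higher (4.55%, against 7.8% of all tested genes) and 1 was lower (4.55%, against 6.01%), shares near or below those of all genes, and 20 did not pass. Ubqln1, a shuttle that carries ubiquitinated proteins to the proteasome, rose from 77.9, 68.8 and 65.5 CPM in control to 132, 153 and 216 CPM in Eef1g-cKO (log2 fold change 1.23, SE 0.25; adjusted p = 0.0031, edgeR). Nfe2l2, the transcription factor NRF2 of the antioxidant response, fell from 74.8, 56.7 and 97.4 CPM to 30.7, 26.3 and 26.3 CPM (log2 fold change −1.46, SE 0.34; adjusted p = 0.0078, edgeR). For both genes the ranges were apart. Nfe2l1, which raises proteasome genes when the proteasome is inhibited, had 74.2 ± 13.9 CPM in controls and 42.8 ± 6.65 CPM in the cKO (SD, n = 3), and it did not pass (log2 fold change −0.81, SE 0.32; adjusted p = 0.10, edgeR). None of the 5 core assembly chaperones Pomp, Psmg1, Psmg2, Psmg3 and Psmg4 passed, with log2 fold changes from −0.62 for Pomp to 0.70 for Psmg3. Vcp, the ATPase p97 that delivers substrates to the proteasome, had a log2 fold change of 0.26 (SE 0.18) and did not pass.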

How the data were processed

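Sorted L/Z spermatocytes of 3 control and 3 Eef1g-cKO samples were profiled by full-length cDNA RNA-seq, without molecular identifiers. The authors trimmed reads with fastp, aligned them to mm10 with HISAT2, counted them with featureCounts, and deposited raw read counts per gene with each gene's length in bases; strand and the handling of reads with several alignments are not given in the sources used here. Groups and replicate numbers come from the sample titles. The genes and lists were chosen with earlier results of these data known. The genes given with values in every library are Psma7, Psma8, Psmb5 to Psmb10, Psme1 to Psme4, Psmf1 and other members with an adjusted p under 0.05; pathway genes were named with values where they passed, and other named genes were chosen after their values were seen.

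Libraries held 763133 to 2617648 reads. Genes were kept with filterByExpr (minimum count 10, minimum total 15), scaled by TMM and tested with genotype alone by edgeR 4.0.16 (robust quasi-likelihood, R 4.3.3), with Benjamini-Hochberg adjustment over 8513 genes and a level of 0.05. Log2 ratios of 2 genes (0.5 reads added) were compared by a 2-sided exact permutation test. CPM per kb used the transcript with the longest coding part in GENCODE M21, because the deposited lengths equal the union of all annotated exons for 41 of 44 genes. Near-identical copies were transcripts matching at 95% or more over at least 150 bases. The edgeR code was tested on simulated data. Alternatives were other scalings and filters, DESeq2 1.42.0, limma-voom (limma 3.58.1) with quality weights, non-robust estimation, length and GC offsets, removal of mitochondrial and rRNA genes, thinning to 763133 reads, a replicate block and leaving out each library. Summing copies and the deposited length were added after seeing the data. Replicate numbers were not used to pair the libraries in the main fit, and no 2 libraries agreed within sampling noise.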

Additional observations from a re-analysis of the deposited data

How the results depend on the processing

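Every alternative kept a negative median for the beta genes, and Psma4 and Psmb1 passed in all 21. The number of proteasome genes called higher, 1 as reported, was 0 with upper-quartile scaling, library totals alone, a filter of 10 reads in every library, the replicate block or a fold change over 1, 2 with the gene length offset, 3 with limma-voom, and 0 to 3 with 1 library left out. Over all tested genes, 664 were higher in the main fit, 463 with upper-quartile scaling and 333 with library totals alone. There were 489 with the filter of 10 reads, 496 with the replicate block and 291 with a fold change over 1. The gene length offset gave 770, limma-voom 921, and fits with 1 library left out 374 to 834. The number of proteasome genes called lower, 8 as reported (512 of all 8513 tested genes), reached 11 after scaling by upper quartiles (639 of 8513). It was 10 where only library size was used (643 of 8513). It was 9 by DESeq2 (612 of 8513), by limma-voom (687 of 8513) and after thinning (429 of 6830). The filter of 10 reads per library also gave 8 (401 of 5567), but Psmb5, Psmb10 and Psme1 were not tested there. Only 5 of the 9 reported calls, higher or lower, were shared with that filter. The number lower fell to 5 with the GC content offset (400 of 8513) or a fold change over 1 (422 of 8513). It was 3 with the replicate block and GC content offset (296 of 8513). With 1 library left out it ran from 3 to 9. The fewest, 3, came without control replicate 3 (238 of 8679). Without control replicate 1, 4 remained (238 of 9441), and without Eef1g-cKO replicate 1, 5 remained (436 of 9705). The number lower over all tested genes thus moved between fits as well. Pathway genes higher, 1 as reported, were 2 with the gene length offset or limma-voom and 1 to 2 with 1 library left out, the 2 without Eef1g-cKO replicate 3; those lower, 1 as reported, were 2 with library totals alone, limma-voom or the filter of 10 reads in every library, and 0 to 1 with 1 library left out, the 0 without control replicate 3.

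The log2 fold change of Psma7 lost its call at −0.43 with the GC content offset and −0.42 with the replicate block and GC content offset, and ran from −1.005 to −0.77 with 1 library left out. That of Psma8 turned to 0.041 with limma-voom, 0.033 with the replicate block and gene length offset and 0.038 without Eef1g-cKO replicate 3, and was −0.45 at its lowest, without control replicate 2. That of Psmb6 turned to −0.0155 with the filter of 10 reads in every library, −0.064 with library totals alone, 0 with upper-quartile scaling and −0.028 without Eef1g-cKO replicate 2, and was 0.24 at its highest, without Eef1g-cKO replicate 1. The median of the alpha genes was −0.37 with library totals alone, −0.30 with upper-quartile scaling and −0.32 with the filter of 10 reads, and ran from −0.29 (without control replicate 2) to −0.078 (without control replicate 3). The median of the 19S regulator was 0.062 with the GC content offset, 0.037 with the replicate block and GC content offset, −0.23 with the filter of 10 reads and −0.28 with library totals alone, and ran from −0.19 (without control replicate 2) to 0.041 (without control replicate 1) with 1 library left out; without Eef1g-cKO replicate 1 it was 0.029. The log2 ratio of Psmb10 to Psmb7 differed by −1.67 with 3 reads added and by −1.85 without Eef1g-cKO replicate 3. Library totals alone and upper-quartile scaling moved the median of all tested genes from −0.050 to −0.24 and −0.17, so falls are larger and rises smaller under them. The cause of each change was not tested.

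Deviations of same-numbered libraries correlated at −0.04, 0.02 and −0.05, and the main fit used no pairing. The authors took control testes from littermates. These correlations cannot show whether same-numbered libraries came from littermates or were sorted together, which the sources do not say. With the replicate block 8 proteasome genes were lower and 0 higher, since Psma6 had an adjusted p of 0.052 (edgeR), and no other call of this gene family changed. At these depths Psmb8, Psmb9, Psmb11 and Psmd13 could not be compared, and Psmb7, Psmb10 and Psme1 rest on few reads.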
